A study of Mus musculus with 48 samples.

Results

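The 31 genes described here encode the machinery that carries new proteins into the endoplasmic reticulum (ER), removes their signal peptides and attaches their first sugars. They were taken as a fixed list of symbols, chosen with earlier results of these data known. All 31 were found among the 20007 genes of the UMI table. By role they fall into 5 groups: 6 genes of the signal recognition particle and its receptor, 6 of the Sec61 channel and its partners, 4 of the TRAP complex, 6 of signal peptidase and signal peptide peptidase, and 9 of the oligosaccharyltransferase.

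Their levels were measured in 48 bulk libraries of spleen cells. The 16 mice had received sheep red blood cells, an immunization that raises germinal centers (GC), where activated B cells divide and mutate their antibody genes. Sorting gave 3 libraries of 1000 cells from every mouse. Naive B cells were gated on high IgD and low IgM, plasma cells on CD138 and low B220, and GC B cells on B220, GL7 and high CD95 with low CD38 and no IgD. Of the mice, 8 carried a c-Rel transgene (called transgenic) and 8 did not (controls). c-Rel is an NF-kB subunit. Both genotypes carried 1 further allele that is not reported here, so the controls are not wild type. The sources used here give neither the age of the mice nor the time after immunization, nor the promoter that drives the transgene.

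Proteins made for secretion begin with a signal peptide. The signal recognition particle binds this peptide as it leaves the ribosome and docks at its receptor on the ER membrane. The chain then passes through the Sec61 channel, helped for many substrates by the TRAP complex. On the inner side signal peptidase cuts the signal peptide off, and the oligosaccharyltransferase transfers a preassembled glycan from a lipid carrier to asparagines of the chain. Plasma cells secrete immunoglobulin as their main product, and every heavy and light chain takes this route.

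Libraries held 97993 to 159857 UMIs in naive B cells, 401207 to 695137 in GC B cells and 481229 to 794273 in plasma cells. Immunoglobulin genes took 50.3 ± 2.06% of the UMIs in control plasma cells and 49.7 ± 1.73% in transgenic ones (mean ± SD, n = 8). Levels are given in CPM, UMIs per 1000000 of the library total after TMM scaling, which corrects totals for composition. Each UMI stands for 1 tagged 3′ end whatever the length of the transcript, so CPM of different genes can be set side by side. This does not hold for genes that share reads with near copies or overlapping genes, as given below. The markers of each gate were checked as sums. The summed level of 6 naive B cell markers was 4788 ± 179 CPM in control naive B cells. It was 649 ± 102 CPM in control GC B cells and 255 ± 63.8 CPM in control plasma cells. The summed level of 8 GC B cell markers was 1671 ± 84.3 CPM in control GC B cells against 93.3 ± 34.6 in control naive B cells. That of 6 plasma cell markers, mostly Jchain, was 115346 ± 17733 CPM in control plasma cells against 1211 ± 576 in control naive B cells. In bulk samples, fewer cells of a type and less RNA per cell cannot be told apart.

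The summed level of the machinery set plasma cells apart from both other populations. In control mice the 31 genes together stood at 3495 ± 158 CPM in naive B cells, 3458 ± 108 CPM in GC B cells and 28799 ± 2771 CPM in plasma cells (n = 8). In transgenic mice the sums were 3674 ± 294, 3593 ± 177 and 29988 ± 1581 CPM. The highest naive library in either genotype reached 3947 CPM and the lowest plasma cell library 24999.5 CPM, so the groups were far apart. Outside immunoglobulin genes, the share of UMIs that came from these genes was 0.464% in naive B cells, 0.477% in GC B cells and 3.0% in plasma cells of controls. Naive and GC B cells thus gave nearly the same summed level.

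All 30 genes that could be tested rose from naive B cells to plasma cells, in control and in transgenic mice alike (edgeR quasi-likelihood test, Benjamini-Hochberg adjusted p under 0.05). Of all genes tested, 27.1% rose in controls and 28% in transgenic mice. The list was chosen with earlier results of these data known, so these shares are given for scale only. The median log2 fold change of the 30 genes was 2.61 in controls and 2.58 in transgenic mice, where the median over all genes was 0.01 and 0.00. Against GC B cells all 30 rose as well, with a median of 2.61 in controls and 2.62 in transgenic mice, beside 30.4% and 31.2% of all genes. Sec61g was too low to test. A gene that passed the expression filter through plasma cells alone had to be higher there. Past the filter in every population by themselves were 26 genes in controls and 27 in transgenic mice, and all of them rose in both comparisons, with medians of 2.73 and 2.62 against naive B cells. The rest were Srp68, Sec63, Stt3a and, in controls, Ssr2. Markers of other cell types moved with this rise. The sum of 6 monocyte, macrophage and neutrophil markers was 2120 ± 189 CPM in control plasma cells (1943 to 2545), against 503 ± 62.1 in naive B cells (452 to 608) and 305 ± 26.5 in GC B cells (264 to 334), with S100a8 and S100a9 at 0 in control plasma cells. The sum of 7 T cell markers was 85.9 ± 22.6 CPM (61.3 to 128), against 15.5 ± 17.8 (0 to 54.2) and 1.90 ± 1.98 (0 to 5.26). In control naive B cells Csf1r, S100a8 and S100a9 were at 0, so the first of these sums rests on few genes. The part of these markers, or of cells that carry them, in the rise was not tested.

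**Figure D1:**
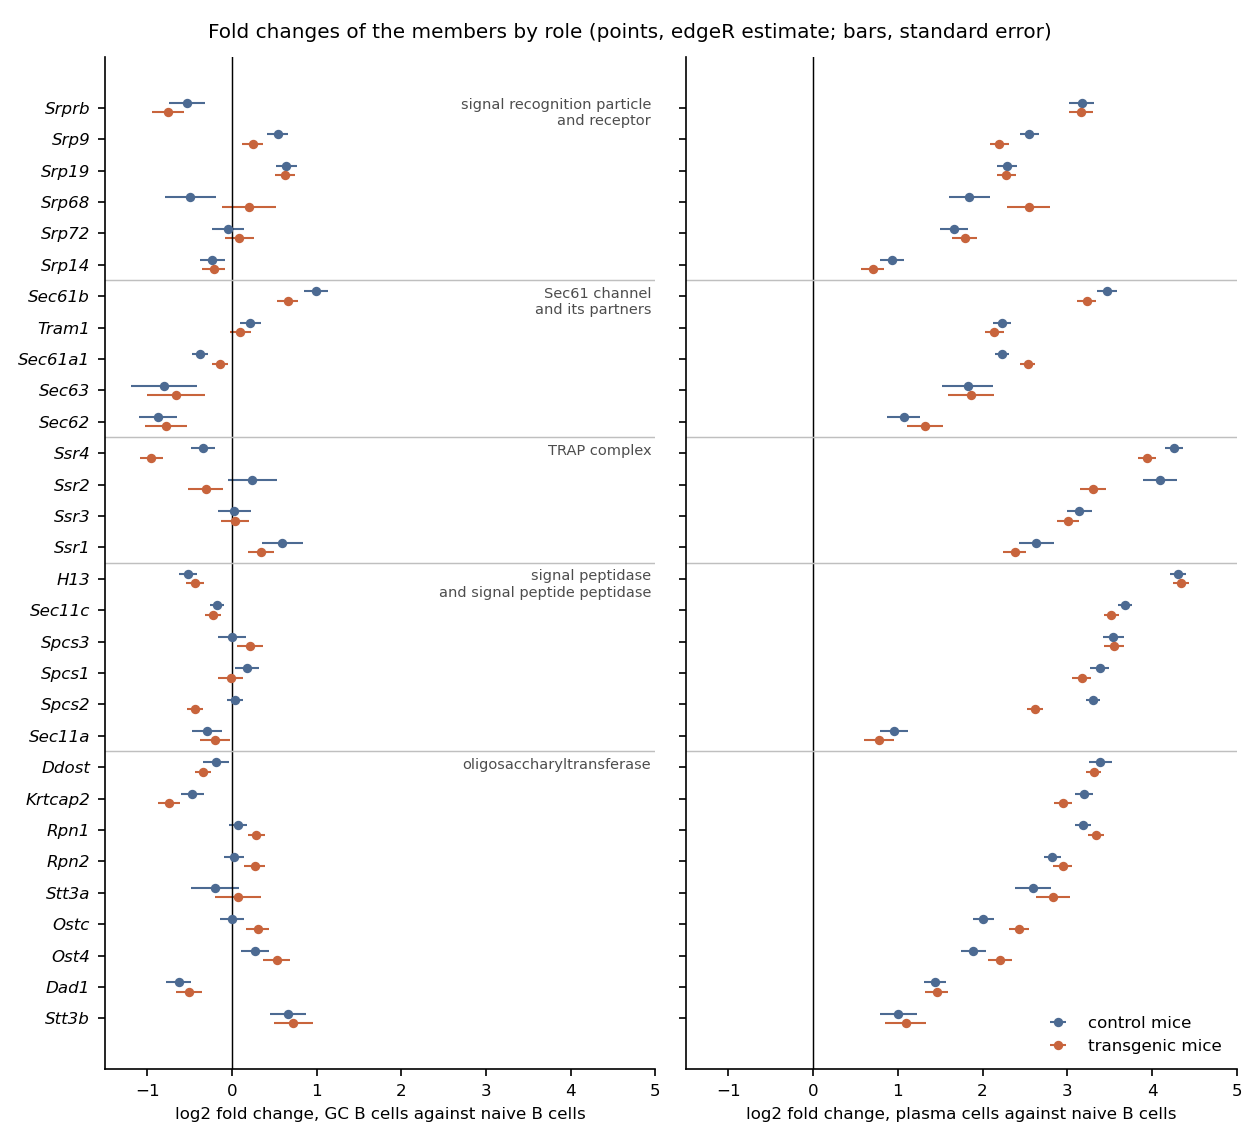
Log2 fold change of the 30 tested genes (rows, ordered by role) in GC B cells (left) and plasma cells (right) against naive B cells. Points are edgeR estimates for control (blue) and transgenic (orange) mice, bars their standard errors. On the right every point lies above 0, from 0.71 to 4.34, and on the left the points fall on both sides of 0.

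The median rise was listed by role, without a test between roles. In control mice the median log2 fold change against naive B cells was 2.07 for the signal recognition particle and its receptor, 2.23 for the Sec61 group, 3.62 for the TRAP complex, 3.46 for signal peptidase and signal peptide peptidase, and 2.59 for the oligosaccharyltransferase. In transgenic mice these medians were 2.24, 2.14, 3.16, 3.34 and 2.83. The mix of UMIs within the machinery shifted with it. Signal peptidase and signal peptide peptidase supplied 29.4 ± 1.36% of the UMIs of the 31 genes in control naive B cells, 27.1 ± 0.60% in GC B cells and 42.9 ± 0.60% in plasma cells. The signal recognition particle group went from 14.7 ± 1.87% and 17.0 ± 0.93% to 7.95 ± 0.67%. For both groups the plasma cell range did not overlap that of either other population. The TRAP complex went up from 7.39 ± 1.78% in naive B cells to 11.8 ± 0.72% in plasma cells, and the oligosaccharyltransferase down from 31.7 ± 2.60% to 26.7 ± 0.83%. These shares are a description and were not tested.

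**Figure D2:**
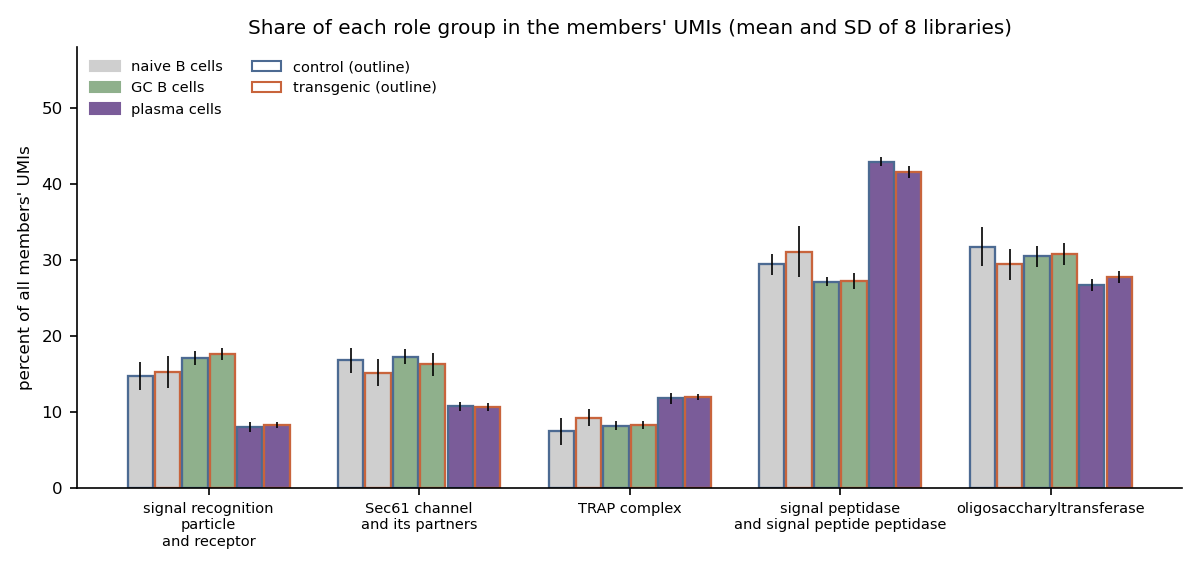
Share of each role group (horizontal axis) in the UMIs of all 31 genes, in percent, as the mean of 8 libraries with SD. Fill gives the population and outline the genotype. The signal peptidase bars of plasma cells stand at 42.9% in controls and 41.5% in transgenic mice, the highest of all groups.

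Promoters were compared because these genes rose together in plasma cells and because Xbp1, a transcription factor of the unfolded protein response that plasma cells need, is known to act on many secretory genes. RefSeq (GRCm38.p6) gave a promoter window, from 250 bases before to 50 bases after the transcription start, for 23 of the 31 genes. Both strands were searched for GCCACGT, a sequence bound by Xbp1, for TGACGTG, the core of a response element of the unfolded protein response, and for the ER stress response element (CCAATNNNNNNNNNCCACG). GCCACGT was found in 6 of the 23 genes (26.1%, against 2.95% of 27025 genes with a window): H13, Sec63, Spcs1, Srprb, Ssr1 and Ssr3. TGACGTG was found in 1 gene, H13 (2.22% of all genes hold it), and the ER stress response element in none of the 23 (0.137% of all genes). The motifs can overlap, since the letters CCACG are part of GCCACGT and of the ER stress response element, and TGACGTG read on the other strand shares CACGT with GCCACGT. A match describes letters and does not show binding, and no match says only that these letters are not in this window. The 27025 genes were taken whatever their expression in these cells or their base composition, so their shares are given for scale only. Genes without a match also rose.

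Shown are the 250 bases before the start of the 5 genes with GCCACGT upstream, with the matches in capitals, and of Ssr4, which rose most in its complex and has no match. They lie at chr9:103202066-103202315 (Srprb, minus strand), chr10:42761246-42761495 (Sec63, plus strand), chr13:37994209-37994458 (Ssr1, minus strand), chr3:65392554-65392803 (Ssr3, minus strand), chr14:31001667-31001916 (Spcs1, minus strand) and chrX:73786773-73787022 (Ssr4, plus strand).
Srprb: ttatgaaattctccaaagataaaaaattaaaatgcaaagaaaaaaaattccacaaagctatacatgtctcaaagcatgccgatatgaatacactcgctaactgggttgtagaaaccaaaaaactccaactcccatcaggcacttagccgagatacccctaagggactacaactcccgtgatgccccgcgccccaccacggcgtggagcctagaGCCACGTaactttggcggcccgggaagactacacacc
Sec63: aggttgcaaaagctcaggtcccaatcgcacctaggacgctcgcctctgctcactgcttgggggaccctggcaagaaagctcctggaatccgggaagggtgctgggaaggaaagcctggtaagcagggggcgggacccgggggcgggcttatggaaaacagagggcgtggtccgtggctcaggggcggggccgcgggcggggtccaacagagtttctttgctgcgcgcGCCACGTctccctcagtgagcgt
Ssr1: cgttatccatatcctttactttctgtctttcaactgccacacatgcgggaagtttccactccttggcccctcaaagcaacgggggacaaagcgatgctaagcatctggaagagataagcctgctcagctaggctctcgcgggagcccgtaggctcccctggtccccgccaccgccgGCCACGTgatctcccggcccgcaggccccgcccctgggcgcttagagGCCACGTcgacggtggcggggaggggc
Ssr3: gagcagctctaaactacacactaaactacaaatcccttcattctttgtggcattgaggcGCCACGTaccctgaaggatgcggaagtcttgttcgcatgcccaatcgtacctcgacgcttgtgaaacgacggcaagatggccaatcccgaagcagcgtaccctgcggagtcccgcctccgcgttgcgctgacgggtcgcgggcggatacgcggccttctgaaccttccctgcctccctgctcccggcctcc
Spcs1: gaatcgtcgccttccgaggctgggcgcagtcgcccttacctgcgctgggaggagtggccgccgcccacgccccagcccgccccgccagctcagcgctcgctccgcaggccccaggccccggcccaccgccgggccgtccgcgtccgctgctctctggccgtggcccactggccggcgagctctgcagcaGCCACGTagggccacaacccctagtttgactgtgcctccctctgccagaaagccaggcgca
Ssr4: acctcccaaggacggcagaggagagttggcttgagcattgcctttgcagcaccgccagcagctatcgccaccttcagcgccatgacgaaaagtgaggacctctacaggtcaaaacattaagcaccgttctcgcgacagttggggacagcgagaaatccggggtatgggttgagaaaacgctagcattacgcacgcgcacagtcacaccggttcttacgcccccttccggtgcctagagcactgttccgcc
The first letter of the match lies 37 bases before the RefSeq start in Srprb, 23 in Sec63, 61 in Spcs1 and 191 in Ssr3. In GENCODE, which gave the gene coordinates, Srprb starts further out, at 103202137. By that start its match lies inside the gene and not upstream. Ssr1 holds 2 matches, at 74 and 27 bases. In H13 both matches lie after the start and are not shown.

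Within the signal recognition particle group, the receptor subunit rose most and the particle itself less. Srprb (ENSMUSG00000032553, chromosome 9, 103188032 to 103202137) encodes the membrane-anchored beta subunit of the receptor. It ranged from 34.3 to 80.4 CPM in control naive B cells (median 45.1), from 23.2 to 43.0 in GC B cells (median 35.4) and from 392 to 519 in plasma cells (median 454). No plasma cell library overlapped the others, and the rise against naive B cells was 9.0-fold (log2 3.17, SE 0.15, adjusted p = 1.21e-39, edgeR). In transgenic mice it was 8.95-fold (log2 3.16, SE 0.14). Srp14, which with Srp9 forms the part of the particle that slows translation, rose least of the group. Its control levels ran from 48 to 168 CPM in naive B cells (median 140.5) and from 166 to 275 in plasma cells (median 245), so that the ranges overlapped narrowly. The rise was 1.91-fold (log2 0.93, SE 0.14, adjusted p = 6.07e-09) in controls and 1.63-fold (log2 0.71, SE 0.14, adjusted p = 4.24e-06) in transgenic mice. Srp9, its partner, rose by more than Srp14, with a log2 fold change of 2.55 in controls, and the scaffold proteins Srp19, Srp68 and Srp72 rose by 2.29, 1.84 and 1.66. In controls Srp68 passed the expression filter through plasma cells alone, so it had to be higher there.

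Among the channel genes, Sec61a1 encodes the pore and Sec61b and Sec61g its small subunits. Sec61b rose most, from 50.5 to 124 CPM in control naive B cells (median 84.0) and 135 to 184 in GC B cells (median 170) to 778 to 1075 in plasma cells (median 885). The populations did not overlap, and the rise from naive B cells was 11.1-fold in controls (log2 3.47, SE 0.12, adjusted p = 1.25e-52) and 9.37-fold in transgenic mice (log2 3.23, SE 0.11). Sec62, which with Sec63 helps open the channel for short or weakly targeted chains, rose least. It lay between 39.3 and 65.6 CPM in control naive B cells (median 51.0), between 18.2 and 44.7 in GC B cells (median 27.7) and between 94.0 and 131 in plasma cells (median 109). Control plasma cells stood clear of both other populations, at 2.10-fold the naive level (log2 1.07, SE 0.20, adjusted p = 1.40e-06), while the transgenic ranges overlapped (29.1 to 81.9 CPM in naive B cells and 77.4 to 163 in plasma cells). Sec61a1 and Tram1, which contacts chains entering the membrane, both rose by 2.23 on the log2 scale in controls.

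Copies of 2 channel genes limit these values. Sec61g held only 109 UMIs in all 48 libraries, while Gm10177, an entry identical to it over the last 300 bases, held 2407. With the UMIs of such near copies added to their gene, an alternative chosen after seeing the data, Sec61g rose in plasma cells by 2.43 (SE 0.17, adjusted p = 8.82e-26) in controls and 2.37 (SE 0.16) in transgenic mice on the log2 scale. Sec61b shares 99% of its last 300 bases with Gm10320 (3503 UMIs, against 6839 for Sec61b). With those added its rise was 3.40 in controls. The sources used here do not say how reads were divided between such copies. Ost4 and Ssr2 overlap or match other genes on the opposite strand, and whether strand was used in counting is not given, so their values are uncertain too.

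The TRAP complex rose as a whole. Ssr4 (ENSMUSG00000002014, chromosome X, 73787028 to 73790830), its delta subunit, was at 69.7 to 153 CPM in control naive B cells (median 109), 67.3 to 108 in GC B cells (median 80.8) and 1446 to 2310 in plasma cells (median 1952). Every plasma cell library was far above the rest, at 19.1-fold the naive level (log2 4.25, SE 0.11, adjusted p = 2.81e-63) and 15.4-fold in transgenic mice (log2 3.95, SE 0.10). Ssr1, the alpha subunit, rose least of the 4. It ran from 21.9 to 110 CPM in control naive B cells (median 81.2), from 84.5 to 132 in GC B cells (median 104) and from 287 to 572 in plasma cells (median 425). The rise of 6.22-fold (log2 2.64, SE 0.21, adjusted p = 3.30e-12) again separated plasma cells from the other populations. Ssr2 and Ssr3 rose by 4.10 and 3.14 on the log2 scale in controls. Ssr2 did not pass the expression filter by itself in control naive B cells.

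**Figure D3:**
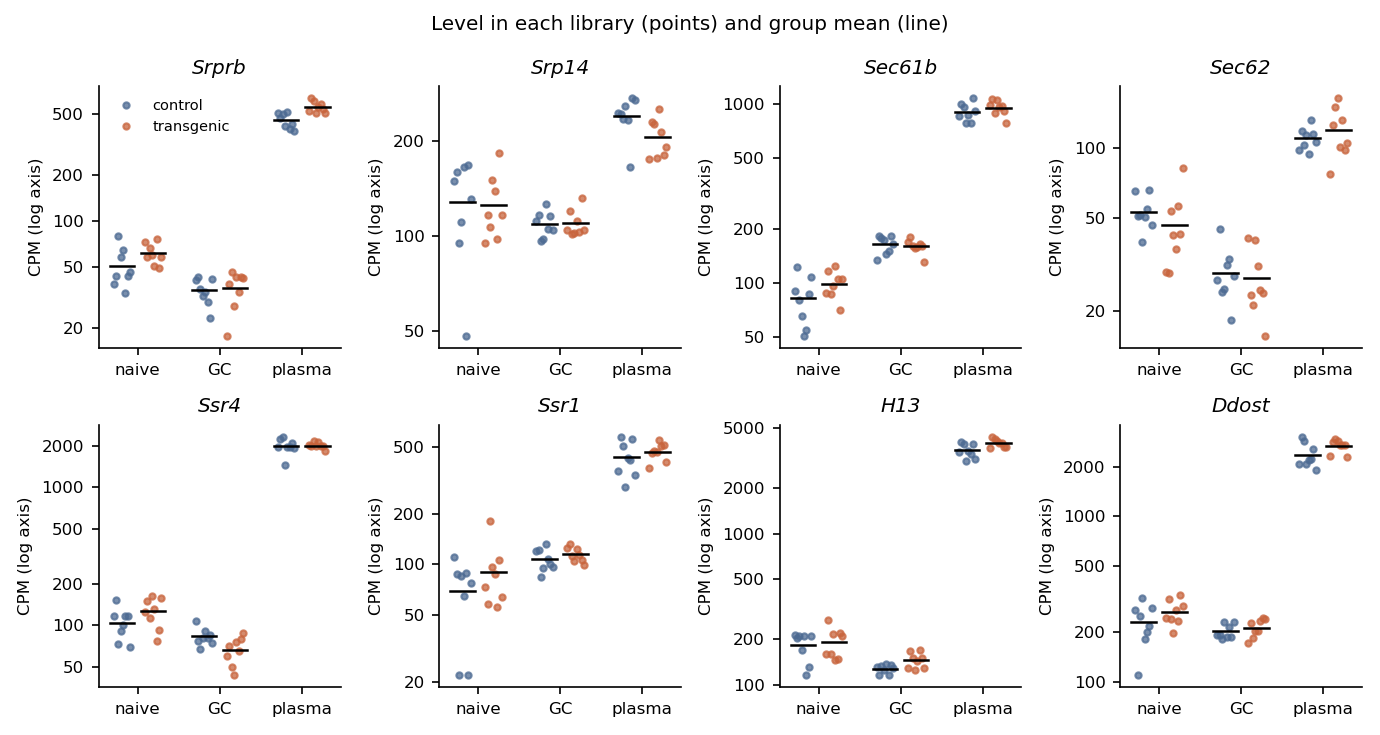
Level in CPM (log axis) of the gene with the largest and the smallest rise in the signal recognition particle, Sec61 and TRAP groups, and of the gene with the largest rise in the signal peptidase and oligosaccharyltransferase groups (H13 and Ddost). Each point is 1 library of control (blue) or transgenic (orange) mice and lines are group means. Plasma cells lie above both other populations for all 8 genes, with overlapping ranges for Srp14 and, in transgenic mice, Sec62.

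Signal peptidase and signal peptide peptidase held the most abundant members in plasma cells. H13 (ENSMUSG00000019188, chromosome 2, 152669461 to 152708670) encodes signal peptide peptidase, which cuts the leftover signal peptides inside the membrane. It rose most of all 30 genes, from 116 to 214 CPM in control naive B cells (median 206) and 115 to 138 in GC B cells (median 130) to 3051 to 4076 in plasma cells (median 3511). That is 19.8-fold the naive level (log2 4.31, SE 0.09, adjusted p = 7.82e-75), and 20.3-fold in transgenic mice (log2 4.34, SE 0.09). Spcs1, Spcs2 and Spcs3, the subunits without catalytic activity, rose by 3.38, 3.31 and 3.54 on the log2 scale in controls.

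The catalytic subunit of signal peptidase comes in 2 versions, Sec11a and Sec11c, and these moved unequally. Sec11c was the most abundant of the 31 genes in each of the 6 groups. It stood at 267 to 407 CPM in control naive B cells (median 348), 290 to 353 in GC B cells (median 315) and 3829 to 5164 in plasma cells (median 4447), a 12.8-fold rise from naive B cells (log2 3.68, SE 0.08, adjusted p = 3.38e-73). Sec11a went only from 38.7 to 110 CPM (median 65.7) to 106 to 184 CPM (median 149), with overlapping ranges. Its rise was 1.94-fold (log2 0.96, SE 0.17, adjusted p = 4.52e-07). The log2 ratio of Sec11c to Sec11a, with 1 UMI added to each, was 2.14 ± 0.58 in naive B cells, 2.27 ± 0.22 in GC B cells and 4.89 ± 0.34 in plasma cells of controls (SD, n = 8). In transgenic mice it was 2.36 ± 0.42, 2.43 ± 0.30 and 5.19 ± 0.23. The ratio was higher in plasma cells than in naive B cells of the same mouse in 8 of 8 mice of each genotype. The same held against GC B cells (two-sided exact sign-flip permutation p = 0.0078125 for each, the smallest possible with 8 mice, adjusted p = 0.0176 over 18 ratio tests).

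The oligosaccharyltransferase also has alternative catalytic subunits, Stt3a, which works beside the channel on chains still entering, and Stt3b, which can act later. Stt3a was at 14.4 to 41.1 CPM in control naive B cells (median 27.7), 12.1 to 34.2 in GC B cells (median 24.6) and 135 to 194 in plasma cells (median 164), 6.03-fold above naive B cells (log2 2.59, SE 0.21, adjusted p = 5.90e-21). In controls Stt3a passed the expression filter through plasma cells alone. It therefore had to be higher there, and its p is not separate support for the rise. Stt3b ran from 26.2 to 82.2 CPM (median 44.9) in naive B cells, from 45.0 to 98.3 (median 73.9) in GC B cells and from 56.8 to 131 (median 86.0) in plasma cells. All 3 ranges overlapped. Against naive B cells the rise in plasma cells was 2.01-fold (log2 1.01, SE 0.22, adjusted p = 4.62e-05).

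Against GC B cells the rise of Stt3b was 1.27-fold (log2 0.34, SE 0.15, adjusted p = 0.0329) in controls and 1.29-fold (log2 0.37, SE 0.15, adjusted p = 0.0258) in transgenic mice, the smallest of all 30 genes. The call did not hold in either genotype when totals without immunoglobulin genes replaced TMM scaling (log2 −0.093, adjusted p = 0.56, in controls and 0.025, adjusted p = 0.884, in transgenic mice) or with no filter on low counts (0.23, adjusted p = 0.215, and 0.29, adjusted p = 0.107). In controls it was also lost in DESeq2 (log2 0.36, adjusted p = 0.0575), with all 48 libraries in 1 fit (0.31, adjusted p = 0.0593) and without the plasma cells of mice 9 and 10 (0.23, adjusted p = 0.22). It was lost too without any 1 of 7 control libraries, the plasma cells of mouse 1, 10 or 12 or the GC B cells of mouse 1, 4, 9 or 11, and without the transgenic plasma cells of mouse 13 (log2 0.25, adjusted p = 0.155). The log2 ratio of Stt3a to Stt3b changed sign between populations. It was −0.62 ± 0.45 in naive B cells, −1.60 ± 0.77 in GC B cells and 0.84 ± 0.46 in plasma cells of controls, and −0.42 ± 0.63, −1.13 ± 0.32 and 1.24 ± 0.25 in transgenic mice. Plasma cells were higher than both other populations in 8 of 8 mice of each genotype (exact sign-flip permutation p = 0.0078125, adjusted p = 0.0176). GC B cells were lower on average than naive B cells of the same mice, and higher in 1 of 8 mice of each genotype (adjusted p = 0.0563 in controls and 0.0469 in transgenic mice, exact permutation). With 0.5 UMI added in place of 1, the transgenic difference of −0.67 did not pass (adjusted p = 0.0872, exact permutation). Neither gene passed the count filter in the fit of naive B cells alone, so the naive ratio rests on few UMIs. With 0.5 UMI it was −0.68 ± 0.50 in controls and −0.48 ± 0.71 in transgenic mice.

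**Figure D4:**
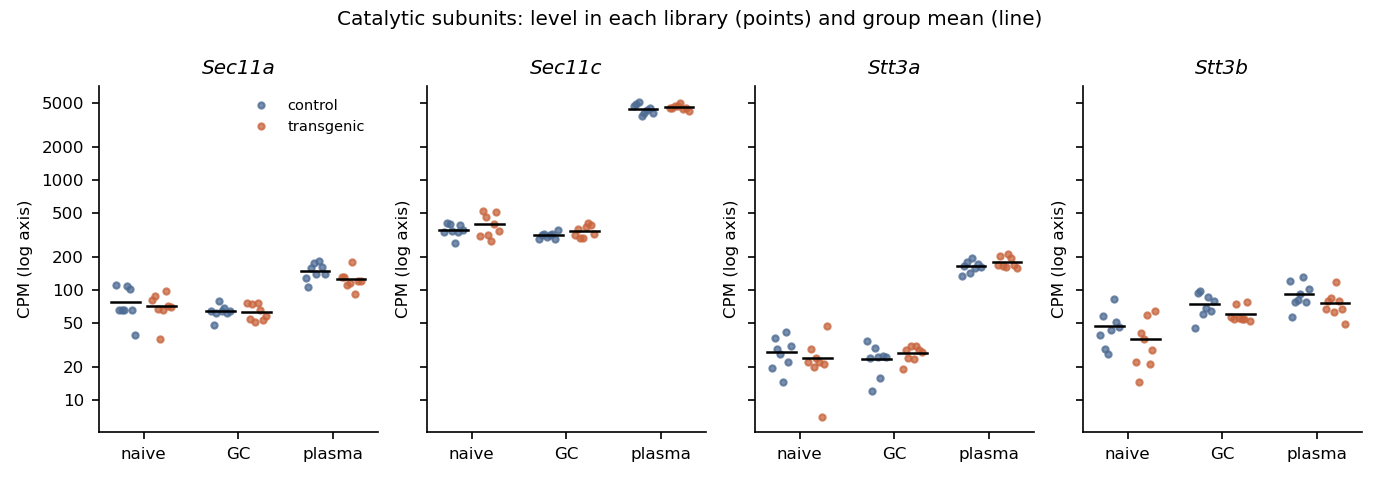
Level in CPM (shared log axis) of the alternative catalytic subunits of signal peptidase (Sec11a, Sec11c) and oligosaccharyltransferase (Stt3a, Stt3b). Each point is 1 library of control (blue) or transgenic (orange) mice and lines are group means. Sec11c and Stt3a jump in plasma cells, while Sec11a and Stt3b rise by at most 2.13-fold and overlap the naive range.

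The other oligosaccharyltransferase genes rose between these extremes. Ddost, a subunit that holds the complex together, rose most, from 109 to 321 CPM in control naive B cells (median 234) to 1909 to 3028 in plasma cells (median 2211). This 10.5-fold rise (log2 3.39, SE 0.14, adjusted p = 1.90e-17) left no overlap. Rpn1 and Rpn2, the ribophorins, rose by 3.19 and 2.82 on the log2 scale, Krtcap2 by 3.19, Ostc by 2.01, Ost4 by 1.89 and Dad1, a small subunit needed for stability, by 1.44.

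Library by library, plasma cells of controls all exceeded all naive libraries for 26 of the 31 genes and all GC libraries for 29, and the same numbers held in transgenic mice. Among all genes tested, 13.6% in controls and 14.4% in transgenic mice were that clearly above naive B cells, and 17.5% and 18.7% above GC B cells. The genes with overlap against naive B cells in both genotypes were Srp14, Sec61g, Sec11a and Stt3b. The further one was Srp68 in controls and Sec62 in transgenic mice.

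Between naive and GC B cells the machinery did not move as a block. In control mice 5 of the 30 tested genes rose (26.6% of all genes did) and 7 fell (24.7%), with a median log2 fold change of −0.02. In transgenic mice 6 rose (27.5% of all genes) and 9 fell (26.5%), with a median of 0.01. Counts of this size are near the share among all genes, so they are not a result about the machinery. Sec61b, Srp19 and Stt3b rose in both genotypes, and Dad1, H13, Krtcap2, Sec62, Srprb and Ssr4 fell in both. Srp9 and Ssr1 rose and Sec61a1 fell in controls. Ost4, Ostc and Rpn1 rose and Ddost, Sec11c and Spcs2 fell in transgenic mice. No difference of this step between genotypes passed the test, as given below.

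Sec61b doubled from naive to GC B cells of controls (1.99-fold, log2 0.99, SE 0.14, adjusted p = 1.13e-09), and its naive and GC libraries did not overlap in either genotype. Srp19, which fastens the particle's RNA, was also higher in every GC library than in every naive one, with 80.0 to 150 CPM in naive B cells of controls and 151 to 223 in GC B cells (log2 0.64, SE 0.13, adjusted p = 6.87e-06). The largest fall in controls was that of Sec62 (log2 −0.87, SE 0.23, adjusted p = 6.87e-04) and in transgenic mice that of Ssr4 (log2 −0.95, SE 0.14, adjusted p = 2.65e-09). Srprb fell by 0.53 (SE 0.21, adjusted p = 0.0375) in controls and by 0.75 (SE 0.19, adjusted p = 4.77e-04) in transgenic mice on the log2 scale. In the latter every GC library was below every naive one, and Dad1 showed the same in controls. No other member left the ranges apart in this step. Of all genes tested, 12.7% in controls and 13.8% in transgenic mice were higher in every GC library, and 9.12% and 9.95% lower, so the members were apart no more often than genes at large. Naive libraries were shallow (447 to 809 UMIs of the 31 genes together), so that small changes of single genes were not detectable there. With no filter on low counts the fold changes of this step shifted by 0.19 in controls and 0.21 in transgenic mice, and the counts turned to 7 higher and 3 lower in controls and 11 higher and 3 lower in transgenic mice.

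Several of these calls depended on the setting. In controls Srprb was lost with totals without immunoglobulin genes (log2 −0.47, adjusted p = 0.0659), with no filter (−0.34, adjusted p = 0.305) and in thinned counts (−0.67, adjusted p = 0.0576), in which each library is drawn down to the smallest. Ssr4 was lost in DESeq2 (−0.34, adjusted p = 0.0846), with totals without immunoglobulin genes (−0.29, adjusted p = 0.0976) and with no filter (−0.16, adjusted p = 0.549), and Ssr1 in thinned counts (0.51, adjusted p = 0.0517). In transgenic mice Sec11c was lost with totals without immunoglobulin genes (−0.15, adjusted p = 0.166). With no filter Sec62 (−0.57, adjusted p = 0.0573), H13 (−0.23, adjusted p = 0.116), Spcs2 (−0.23, adjusted p = 0.0645), Sec11c (−0.016, adjusted p = 0.972) and Ddost (−0.14, adjusted p = 0.376) did not pass. Only the 13 members given in full were followed in this way.

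The c-Rel transgene was compared with its control within each population, since the study asked what added c-Rel does in B cells. In naive B cells 19 of the 31 genes could be tested and none passed, in either direction (0.61% of all genes were higher and 0.516% lower). With edgeR, 4 had an unadjusted p under 0.05. In GC B cells 29 were tested and none passed (3.58% of all genes higher, 4.1% lower), with 5 at an unadjusted p under 0.05. The share of all genes at that unadjusted cutoff was not counted, so nothing is read from these 4 and 5. DESeq2 also called none in either population. The median log2 fold change was 0.07 in naive B cells and 0.06 in GC B cells, where that of all genes was 0.00 in both.

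In plasma cells 30 genes were tested, of which Srprb was higher in transgenic mice and Spcs2 lower (2.31% of all genes were higher and 4.03% lower). These counts are near the share among all genes, so they are not a result about the machinery. Srprb ran from 392 to 519 CPM in controls (median 454) and from 510 to 639 CPM in transgenic mice (median 548). The ranges overlapped narrowly, and the difference was 1.22-fold (log2 0.28, SE 0.08, adjusted p = 0.0187). Spcs2 (ENSMUSG00000035227, chromosome 7, 99837569 to 99863462) ran from 1979 to 2885 CPM in controls (median 2422) and from 1703 to 2413 CPM in transgenic mice (median 2091). The ranges overlapped over much of their width, and the difference was 1.18-fold (log2 −0.24, SE 0.07, adjusted p = 0.0239). Genotype ranges overlapped for all 31 genes in all 3 populations, where 0.141% of all genes tested had no overlap in naive B cells, 0.61% in GC B cells and 0.926% in plasma cells. The median log2 fold change of the 30 genes was 0.08.

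Both calls were close to the threshold. Srprb was lost in thinned counts (log2 0.46, adjusted p = 0.0573), and Spcs2 in DESeq2 (−0.24, adjusted p = 0.0616), with no filter (−0.21, adjusted p = 0.0901) and in thinned counts (−0.27, adjusted p = 0.0878). Srprb was also lost without the transgenic library of mouse 6 (log2 0.26, adjusted p = 0.0559). Gm20425 matches the 3′ end of Srprb exactly over 155 bases on the same strand and is not in the UMI table. How reads shared with Gm20425 were counted is not given. Spcs2 was also lost without the control library of mouse 3 (log2 −0.20, adjusted p = 0.0784) or the transgenic library of mouse 6, 7, 15 or 16 (log2 −0.21 to −0.24, adjusted p from 0.0506 to 0.0889). The pseudogene Spcs2-ps, 95.8% identical to Spcs2 over 288 bases, was also lower in transgenic plasma cells (214 ± 48.7 against 160 ± 24.7 CPM, log2 −0.42, SE 0.12, adjusted p = 0.0195), and with its UMIs added Spcs2 differed by −0.25 (adjusted p = 0.0193). The next members by p in plasma cells were Ssr3 (log2 0.20, adjusted p = 0.12) and Rpn1 (log2 0.17, adjusted p = 0.128), which did not pass. With totals without immunoglobulin genes, Ssr3, H13 and Rpn1 passed as higher beside Srprb, and Spcs2 did not pass (log2 −0.18, adjusted p = 0.113). These totals still held Jchain, which was not counted among the immunoglobulin genes. The part of Jchain in these changes of calls was not tested. Transgenic plasma cells held lower sums of 6 plasma cell markers (80666 ± 15985 against 115346 ± 17733 CPM, mostly Jchain), of 6 naive B cell markers (99.5 ± 21.4 against 255 ± 63.8 CPM) and of 7 T cell markers (45.2 ± 26.1 against 85.9 ± 22.6 CPM). The sum of 6 monocyte, macrophage and neutrophil markers was 1826 ± 150 against 2120 ± 189 CPM and that of 4 erythroid markers 19.1 ± 9.0 against 162 ± 381 CPM. The sum of 8 GC B cell markers was higher, at 176 ± 51.7 against 111 ± 15.8 CPM. The part of these in the 2 calls was not tested.

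Whether the transgene effect differed between populations was tested as a difference of effects over all 48 libraries. Between GC and naive B cells and between plasma cells and GC B cells no member passed (0.129% and 1.58% of all genes did). In edgeR 2 and 1 had an unadjusted p under 0.05, for which the share of all genes was not counted. DESeq2 called none. Between plasma cells and naive B cells only Spcs2 passed (1.16% of all genes), a single call and not a result about the machinery as a whole. Its effect was lower in plasma cells by 0.65 on the log2 scale (SE 0.13, adjusted p = 0.00129). Naive B cells held 196 to 281 CPM of Spcs2 in controls (median 259) and 213 to 417 CPM in transgenic mice (median 321). Naive libraries were thus higher with the transgene on average (log2 0.39, SE 0.12, adjusted p = 0.094) and plasma cells lower, with overlap in both. In GC B cells the levels were 256 ± 26.1 and 248 ± 24.6 CPM. The difference passed in each of 48 fits that left out 1 library (log2 −0.70 to −0.59, highest adjusted p = 0.00796).

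Plasma cell markers were also higher in transgenic naive libraries, at 2331 ± 1135 against 1211 ± 576 CPM for the sum of 6 (1013 to 4116 against 411 to 1982 CPM). Jchain made up most of it, at 1814 ± 1009 against 869 ± 522 CPM. Xbp1, itself 1 of these 6 markers, moved like Spcs2. It stood at 409 ± 133 against 261 ± 68.0 CPM in naive B cells. Its difference of effects between plasma and naive B cells was −0.84 (edgeR, log2, SE 0.21, adjusted p = 0.0307). The part of plasma cell RNA in the naive libraries in the Spcs2 result was not tested. The catalytic ratios did not pass between genotypes in any population. In plasma cells the log2 ratio of Sec11c to Sec11a was higher by 0.31 with the transgene and that of Stt3a to Stt3b by 0.40 (two-sided exact permutation p = 0.0555 and 0.0511, adjusted p = 0.0832 for both over 18 tests).

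**Figure D5:**
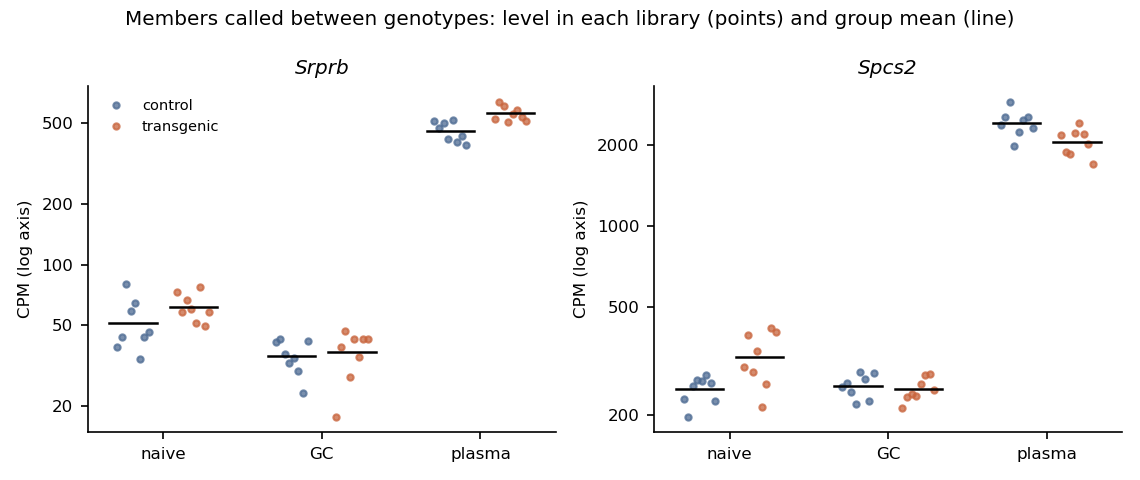
Level in CPM (log axis) of Srprb and Spcs2 in naive, GC and plasma cell libraries of control (blue) and transgenic (orange) mice, with 1 point per library and lines for group means. In plasma cells the mean of Srprb is higher with the transgene (560 against 456 CPM) and that of Spcs2 lower (2055 against 2415 CPM), and the points of the genotypes overlap.

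Genes that work beside this machinery were followed as 6 further lists, of which 62 of 67 names were matched in the table. Their counts stand beside the 27.1% of all genes that rose in controls and the 28% in transgenic mice. Of 5 tested relatives of the members, 4 rose from naive B cells to plasma cells in controls and 1 fell. Tram2, a relative of Tram1, rose by 3.73 (SE 0.22, adjusted p = 3.05e-32) and Magt1, a subunit that accompanies Stt3b, by 2.85 (SE 0.18, adjusted p = 2.01e-29) on the log2 scale. Tusc3, the alternative to Magt1, fell by 1.06 (SE 0.32, adjusted p = 0.00289). All 6 genes of glycan trimming and lectin chaperones rose (median log2 1.63), led by Calr, a lectin chaperone, with 2.35 (SE 0.08). Of 13 tested genes that build the lipid-linked glycan, 9 rose (median 0.93), and Dhdds, which makes the dolichol carrier, led with 2.98 (SE 0.30). All 9 regulators of secretory capacity rose in controls (median 2.77) and 8 of 9 in transgenic mice. Among them were Xbp1 with 4.85 (SE 0.11) and the ER-bound factor Creb3l2 with 5.87 (SE 0.34) in controls. Xbp1, Prdm1 and Irf4 are also among the 6 plasma cell markers, so their rise is not separate from the check of the gate.

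Other routes into the membrane were followed as well. Of 7 tested genes of the ER membrane complex, an insertase for multispanning proteins, 3 rose in controls (median 0.08), led by Emc7 with 1.78 (SE 0.17). Of 5 tested genes for insertion of tail-anchored proteins 2 rose (median 0.34), Get4 by 0.95 (SE 0.21) and Ubl4a by 0.87 (SE 0.26). With so few genes tested these counts say little beyond the 27.1% of all genes. In transgenic mice the medians of these lists were 0.37 and 0.63. Between genotypes 2 genes of the 6 lists passed, both in plasma cells and both higher with the transgene. Of all genes tested in plasma cells, 2.31% were higher and 4.03% lower. At most the 62 matched genes of the lists could be tested, so 2 calls are not read as a result about the lists. Tram2 was at 314 ± 37.3 against 246 ± 34.5 CPM (log2 0.33, SE 0.10, adjusted p = 0.0257) and Magt1 at 353 ± 42.2 against 285 ± 37.6 CPM (log2 0.30, SE 0.09, adjusted p = 0.0417). In naive and GC B cells none of the listed genes passed (edgeR).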

How the data were processed

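The authors deposited 1 table of UMI counts per gene for 48 libraries of bulk SCRB-seq, a method that reads the 3′ end of transcripts and counts each tagged molecule once. The submitters' processing notes name STAR as a tool and GRCm38.p5 as the build. The STAR version, the counting tool, its use of strand and its treatment of reads that match several genes were not given in the sources used here. Gene names and coordinates came from GENCODE M21 (GRCm38), and promoters from RefSeq (GRCm38.p6). No symbol was found for 306 of 20007 genes (0.424% of UMIs).

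Genotype was tested within each population (16 libraries), populations within each genotype (24 libraries), and differences of transgene effects over all 48 libraries. Each fit used edgeR 4.0.16 (R 4.3.3) with filterByExpr (minimum count 10, minimum total 15), TMM scaling and robust quasi-likelihood tests. Benjamini-Hochberg adjustment ran over all genes tested, and a call means an adjusted p under 0.05. Scripts were tested on simulated counts. Ratios of catalytic subunits used 1 UMI as pseudocount and two-sided exact permutation tests over mice (scipy 1.17.1), adjusted over 18 tests. Replicates are mice. Libraries of 1 mouse pair across populations because the labels give the same individual, although deviations of same-mouse libraries correlated weakly (medians of 0.006 to 0.058). The replicate block by mouse changed 1 count by 1, given with the alternatives.

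The members and the other lists were chosen with earlier results of these data known. Values in full were given to members called between genotypes, to the largest and smallest rise in each role group and to the catalytic pairs. The motifs were searched in windows of 300 bases on both strands. Near copies are genes with 95% or more identity over 100 or more bases to the last 300 bases of a member. Alternatives were DESeq2 1.42.0, totals without the 226 immunoglobulin genes, no filter, counts thinned to the smallest library, all libraries in 1 fit, the mouse block, each library left out, and 2 plasma cell libraries left out whose titles carry another code. Jchain is not among the 226 immunoglobulin genes and stayed in those totals. Adding the UMIs of near copies was chosen after seeing the data.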

Additional observations from a re-analysis of the deposited data

Results flagged for a closer look

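Single libraries stood apart from the other 7 of their group for 4 of the 13 members given in full. In each the gap to the nearest library took up more of the range of the group than the limit of Dixon's test at 95% for 8 values. With 78 groups checked, chance alone marks about 1 in 20, so these 4 are about as many as chance would mark. Srp14 was at 166 CPM in control plasma cells of mouse 10, where the next library had 234 CPM and the farthest 275 (gap 0.621 of the range). Ssr1 was at 181 CPM in transgenic naive B cells of mouse 7, above 106 CPM in the next library and 56.1 in the lowest (0.598). Ssr4 was at 1446 CPM in control plasma cells of mouse 4, below 1909 CPM in the next library (0.536). Sec11a was at 179 CPM in transgenic plasma cells of mouse 13, above 131 CPM in the next (0.557).

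The transgene effect on Spcs2 differed between plasma cells and naive B cells by −0.65 on the log2 scale in the test of the difference itself (edgeR, adjusted p = 0.00129). Plasma cell markers, which were higher in transgenic naive libraries, moved with it, and their part in it was not tested.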

How the results depend on the processing

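The rise of the machinery in plasma cells held under each alternative run, with 30 to 31 members called against naive B cells and 29 to 31 against GC B cells. In thinned counts 24 members were tested and all 24 were called in both comparisons. Scaling to totals without immunoglobulin genes lowered the log2 fold changes of plasma cells against naive B cells by 0.38 in controls and 0.27 in transgenic mice at the median, without loss of a call there. Against GC B cells it turned Stt3b to −0.093 in controls and left 0.025 in transgenic mice (adjusted p = 0.884).

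Between genotypes in plasma cells, the count of members called higher went from 1 to 4 with totals without immunoglobulin genes (Ssr3 0.26, H13 0.22, Rpn1 0.23 beside Srprb) and to 0 with thinned counts. The count called lower went from 1 to 0 with totals without immunoglobulin genes, with no filter, with thinned counts and in DESeq2. In those settings Spcs2 stood at −0.18, −0.21, −0.27 and −0.24 on the log2 scale (adjusted p 0.113, 0.0901, 0.0878 and 0.0616). Srprb in thinned counts was at 0.46 (adjusted p = 0.0573).

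Between GC and naive B cells of controls, 2 members were called higher in thinned counts (against 5), and with no filter 3 were called lower (against 7). In transgenic mice no filter gave 11 higher and 3 lower (against 6 and 9), and thinned counts gave 3 higher. The log2 ratio of Stt3a to Stt3b in GC against naive B cells of transgenic mice was −0.67 with a pseudocount of 0.5 UMI and no longer passed (adjusted p = 0.0872). Thinning leaves fewer genes tested. The other causes were not tested.

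Leaving out 1 library at a time gave 4 to 5 higher and 5 to 8 lower for GC against naive B cells in controls, 4 to 9 and 8 to 10 in transgenic mice, and 29 to 30 higher for plasma cells against GC B cells in each genotype. Between genotypes it gave 0 to 1 higher and 0 lower in naive B cells, 0 to 1 in each direction in GC B cells, and 0 to 2 higher and 0 to 1 lower in plasma cells. The added calls were Spcs2 in naive B cells (0.46 without transgenic mouse 13 and 0.44 without mouse 14), Stt3b in GC B cells (−0.41 without control mouse 1), Rpn1 in GC B cells (0.24 without transgenic mouse 5 and 0.22 without mouse 8) and Ddost in plasma cells (0.23 without control mouse 2). Without the control plasma cells of mice 9 and 10 the calls between genotypes held.

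With the replicate block by mouse, GC against naive B cells gave 5 higher and 7 lower in controls and 5 higher and 9 lower in transgenic mice, and the difference for Spcs2 was −0.65 (adjusted p at most 0.00735 over its alternatives that left out no single library). The block moved no other count of members. No paired analysis was possible for the genotype comparisons because control and transgenic libraries come from different mice. Naive libraries hold few UMIs of these genes, so that small differences there were not detectable at this depth.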

Other observations

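Among the regulators of secretory capacity, several genes passed between GC and naive B cells. In transgenic mice 6 of 9 fell (edgeR, adjusted p under 0.05), beside 26.5% of all genes, with a median log2 fold change of −0.85, and in controls 2 fell and 1 rose (24.7% and 26.6% of all genes did), with a median of −0.11. The control counts are near the share among all genes. Irf4, a factor needed for plasma cell formation, fell by 1.65 (SE 0.31) in controls and by 1.83 (SE 0.23) in transgenic mice on the log2 scale. Ddit3, a stress response factor, fell by 1.47 (SE 0.35) and 1.78 (SE 0.33). Xbp1 fell by 0.85 (SE 0.17, adjusted p = 2.27e-04) in transgenic mice, and in controls its value was −0.11 (SE 0.12, adjusted p = 0.497). The difference between genotypes in this step did not pass for any of the 9 (for Xbp1 −0.72, adjusted p = 0.224). Plasma cell markers, which include Xbp1, Prdm1 and Irf4 of this list, were higher in transgenic naive libraries, as given above.

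Of 13 tested genes that build the lipid-linked glycan, 5 fell and 1 rose from naive to GC B cells in controls, and 4 fell in transgenic mice. Of all genes, 24.7% fell and 26.6% rose in controls and 26.5% fell in transgenic mice, and with 13 genes tested nothing particular to the list is read from these counts. Alg1, Alg5, Dpm3 and Srd5a3 fell in both. Dpm3, which anchors the enzyme that makes dolichol phosphate mannose, fell by 1.33 (SE 0.30) and 1.51 (SE 0.39). Emc8 of the ER membrane complex rose by 1.04 in controls (SE 0.20) and in transgenic mice (SE 0.18).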
